A study of Homo sapiens with 9 samples.

Results

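Interferon-stimulated and antigen presentation genes were examined as a set of 48, chosen by gene name and by no threshold on these counts, though with earlier results of these data known, in a table of 70116 gene IDs. All 48 were matched to an ID by symbol. Of these, 36 passed a filter on low counts and were tested, and 12 did not pass, of which 1 had 0 counts in every library. RNA was sequenced from U2OS, an established human osteosarcoma cell line, in 3 groups of 3 libraries. The groups were PERK KO cells given palbociclib for 4 days, WT cells given palbociclib for 4 days, and WT cells given vehicle. PERK is the product of EIF2AK3. This kinase sits in the membrane of the endoplasmic reticulum and lowers translation when unfolded proteins build up, and it was depleted with CRISPR/Cas9. Palbociclib inhibits the cyclin-dependent kinases CDK4 and CDK6. The labels name no interferon treatment, and they do not say whether the knockout was a clone or a pool. A difference between KO and WT cells therefore cannot be told apart from other differences between the edited cells and the WT cells. KO cells on vehicle were not analysed here. For that reason the response to the drug could not be compared between genotypes.

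EIF2AK3 was read first, as a check of the labels. It had 19.7, 18.7 and 17.8 CPM (counts scaled to a common library size, so a share of each library) in the 3 KO palbociclib libraries, 35.7, 36.8 and 31.8 CPM in WT palbociclib and 31.7, 34.8 and 32.8 CPM in WT vehicle. Every KO library lay below every WT library, and the level on palbociclib differed between KO and WT cells by -0.89 ± 0.068 on the log2 scale (fold change ± SE, edgeR adjusted p = 5.98e-09). A CRISPR edit need not remove the mRNA, so this level does not measure the protein.

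Type I interferons bind the receptor chains IFNAR1 and IFNAR2 and activate the kinases JAK1 and TYK2, which phosphorylate STAT2. STAT2 and IRF9 are subunits of the complex ISGF3, which binds the interferon-stimulated response element in promoters of antiviral genes. Interferon-γ acts in part through IRF1, and it raises the genes of class I antigen presentation, in which the peptide transporter TAP, tapasin and β2-microglobulin load peptides onto HLA molecules.

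The element's core, 2 GAAA repeats spaced by 2 bases (GAAANNGAAA, or TTTCNNTTTC on the other strand, overlapping matches counted), was searched on both strands in RefSeq promoter windows on GRCh38.p14 that run from 250 bases before to 50 after each annotated start. Stretches of 60 bases from 8 genes are shown, because these genes moved differently although each holds the core. They come from chr19:17405716-17405775 on the minus strand (BST2), chr10:89392492-89392551 on the plus strand (IFIT1), chr10:89327826-89327885 on the plus strand (IFIT3), chr1:78649756-78649815 on the plus strand (IFI44), chr12:112938316-112938375 on the plus strand (OAS3), chr7:93118071-93118130 on the minus strand (SAMD9), chr1:1013369-1013428 on the plus strand (ISG15) and chr15:44711358-44711417 on the plus strand (B2M). Each is written 5′ to 3′ on the strand of its gene, and capitals mark the core.
BST2: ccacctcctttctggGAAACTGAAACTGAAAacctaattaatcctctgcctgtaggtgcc
IFIT1: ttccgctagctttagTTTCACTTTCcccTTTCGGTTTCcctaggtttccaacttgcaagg
IFIT3: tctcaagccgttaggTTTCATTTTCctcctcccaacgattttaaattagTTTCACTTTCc
IFI44: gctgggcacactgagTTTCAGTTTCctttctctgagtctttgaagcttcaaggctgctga
OAS3: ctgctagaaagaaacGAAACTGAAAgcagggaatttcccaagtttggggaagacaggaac
SAMD9: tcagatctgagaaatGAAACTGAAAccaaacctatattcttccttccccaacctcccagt
ISG15: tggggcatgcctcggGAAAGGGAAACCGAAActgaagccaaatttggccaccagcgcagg
B2M: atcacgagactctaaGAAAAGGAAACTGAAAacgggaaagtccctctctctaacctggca
The 2 copies in BST2, in ISG15 and in B2M overlap each other. A match to the letters is a description of the window and not evidence of binding.

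Of the 48 genes, 39 had a promoter window in the RefSeq table, with 52 windows between them. The core was present in 29 of these windows (55.8%), belonging to 25 genes, against 1255 of 35116 windows in the whole table (3.57%). A window held it more than once in 16 genes of the set. IFI6, for example, had it at 156, 115 and 93 bases before the start. In the map of core positions, most copies lie upstream of the start.

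**Figure D1:**
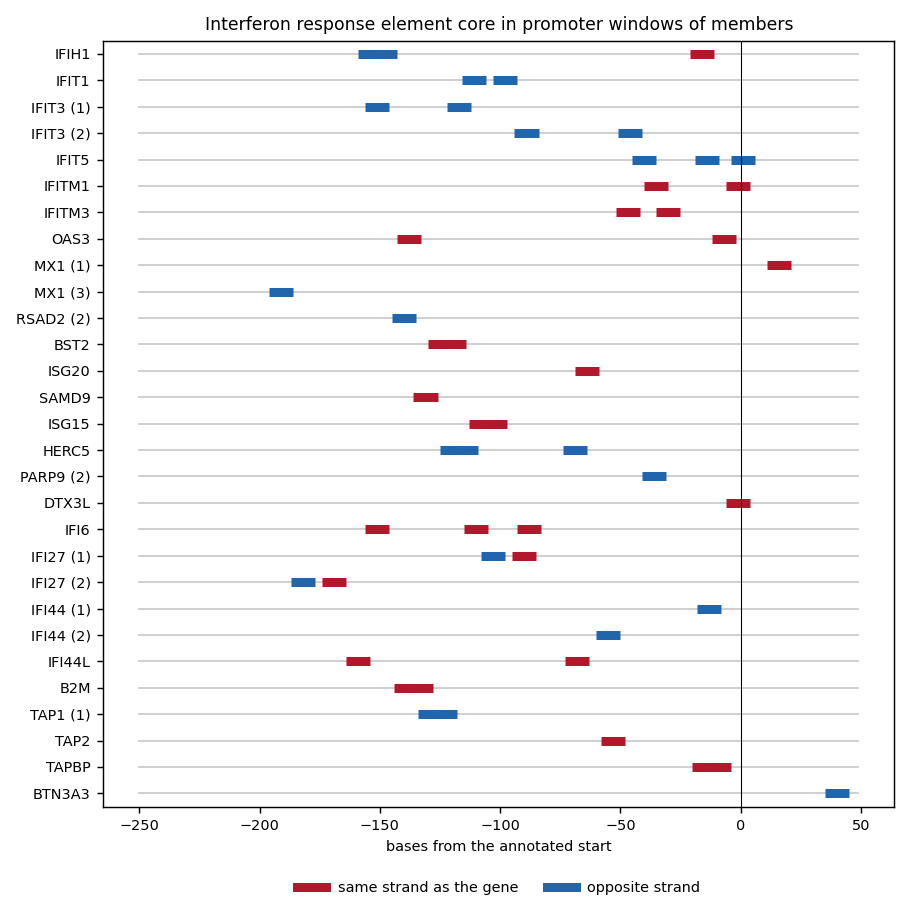
Position of the response element core in the promoter windows that hold it, in bases from the annotated start, for 29 windows of 25 genes. Each bar is 1 match, red on the strand of the gene and blue on the opposite strand, with the grey line showing the window from 250 bases before to 50 after the start. Numbers in brackets tell windows of the same gene apart.

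Library totals ran from 33674039 to 42577874 counts, and 29276 to 30540 genes had at least 1 count. The labels number the libraries as sets 1 to 3 in each group without stating that they came from separate cultures, so a p-value reflects only how far libraries of a group scatter, which may be technical. Libraries with the same set number varied together across groups (correlations of 0.18 to 0.54, and at most 0.071 for other pairs). The main fit leaves this pairing out. Where a fit with the set number as a block changed a call, its adjusted p is given beside the result. Osteoblast and mesenchymal markers were abundant, with a summed level of 8095 to 9888 CPM in KO palbociclib, 7762 to 8832 CPM in WT palbociclib and 5313 to 5685 CPM in WT vehicle over 10 genes, although SP7 was at 0. Haematopoietic markers summed to 3.11 to 3.48 CPM in KO palbociclib, 2.29 to 2.86 CPM in WT palbociclib and 1.04 to 1.37 CPM in WT vehicle over 8 genes, with CD3E at 0. Of these 8 genes, 4 were tested and 3 were called higher on palbociclib in WT cells, namely PTPRC, CD53 and LAPTM5. That rise was not particular to this list. In the same comparison 6 of 7 tested osteoblast and mesenchymal markers, 3 of 4 epithelial and 1 of 3 endothelial ones were called higher, and 0 lower. Over all tested genes 43.7% were called, 21.3% higher. Endothelial markers summed to 4.97 to 5.20 CPM in KO palbociclib, 5.31 to 5.84 CPM in WT palbociclib and 3.54 to 4.16 CPM in WT vehicle over 5 genes, and 5 epithelial markers summed to 554 to 577 CPM in KO palbociclib, 843 to 896 CPM in WT palbociclib and 632 to 667 CPM in WT vehicle. The part of these markers in the results on interferon-stimulated genes was not tested. In bulk RNA, fewer cells of a type and less RNA per cell cannot be told apart.

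The 12 genes below the filter were IRF7, IRF9, OAS2, RSAD2, HERC5, XAF1, IFI27, IFI35, IFI30, HLA-B, TAP1 and TAP2. IFI27, a small membrane protein much used as an interferon marker, was listed at 0 in all 9 libraries. A count of 0 over all libraries allows up to 0.00874 CPM, and in a single library up to 0.0705 to 0.0891 CPM (3 counts, counting error only). IRF9, the DNA-binding subunit of ISGF3, had 2, 1 and 2 counts in KO palbociclib, 0, 0 and 0 in WT palbociclib and 0, 1 and 0 in WT vehicle. IRF7, the factor that amplifies interferon-α transcription, had 1, 1 and 0 counts in KO palbociclib, 0, 1 and 0 in WT palbociclib and 0, 0 and 0 in WT vehicle. These values lay at or near the floor in all 3 groups.

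Of the class I genes, HLA-B, TAP1 and TAP2 were also nearly without counts. HLA-B, a class I heavy chain, had 0, 0 and 1 counts in KO palbociclib, 1, 1 and 1 in WT palbociclib and 0, 3 and 1 in WT vehicle. TAP1, a transporter subunit, had 0, 2 and 1 counts in KO palbociclib, 3, 0 and 0 in WT palbociclib and 0, 2 and 0 in WT vehicle. TAP2, the other subunit, had 1 count in all. Over all libraries, the rest of the untested genes held 30 counts for OAS2, 23 for RSAD2, 3 for HERC5, 1 for XAF1, 52 for IFI35 and 19 for IFI30. The exons of IFI30 overlap a readthrough annotation over 40.2% of their length. Those of IRF9 and TAP2 also overlap other annotations on the same strand, over 48.4% and 32.3% of their length.

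For several of these genes the neighbours were without counts as well. Within 250 kb of IRF9, 37 of 38 other protein-coding genes averaged under 10 counts per library (97.4%), and the same held for 10 of 10 around IFI27 (100%) and 14 of 16 around TAP1 (87.5%), against 6224 of 19855 protein-coding genes in the genome (31.3%). The genes around IRF9 included PSME1, PSME2, NEDD8 and IPO4, each at 0 counts, and DDX24, an RNA helicase near IFI27, was at 0 too. In the interval from HLA-C to TAPBP (chromosome 6, 31268749 to 33299694), 98 of 106 protein-coding genes averaged under 10 counts (92.5%) and 67 were at 0. Genes there that dividing cells generally use held almost nothing: over all 9 libraries RPS18 had 5 counts, CSNK2B 2 and DDX39B 0. TUBB, also on chromosome 6 but not placed in this interval, had 5. These neighbours were picked with their values known. The levels of IRF9, IFI27, HLA-B, TAP1 and TAP2 can therefore be given only as listed at or near 0 in this table, whose counting method is not stated in the labels, and the cause was not tested.

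The other untested genes sat among counted neighbours. RPL27, near IFI35, averaged 20717 counts per library, and the shares of neighbours under 10 counts were 14.3% around IFI35, 25.0% around XAF1 and 0% around OAS2 and RSAD2. Around IRF7 the share was 32.1%, close to that of the genome, though HRAS beside it had 5 counts in all. TAPBP and HLA-C, at the edges of the interval on chromosome 6, passed the filter but had 90.5% and 80.0% of their neighbours under 10 counts. Their values below are given with that limit.

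**Figure D2:**
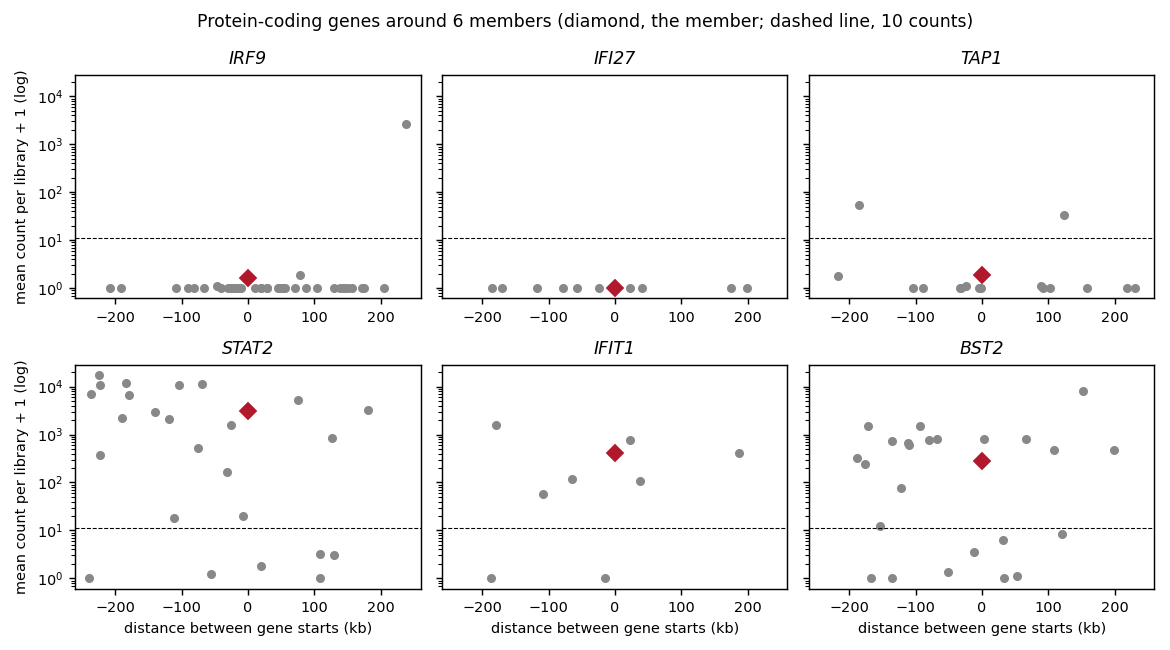
Mean count per library plus 1 (log axis) of protein-coding genes within 250 kb of 6 genes of the set, against the distance between gene starts in kb. The red diamond is the gene named above each panel and the dashed line marks 10 counts. Neighbours of IRF9, IFI27 and TAP1 lie almost all at the bottom, whereas those of STAT2, IFIT1 and BST2 spread over several orders of magnitude.

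Per kilobase of annotated exon, the tested genes spanned a wide range of levels. In WT vehicle the highest were IFITM3 at 43.5, IFITM2 at 15.4, IFI6 at 14.2, B2M at 11.4, IFI16 at 10.6 and STAT2 at 10.5 CPM per kb. MX2 had the lowest level, 0.0406 CPM per kb, preceded by OAS1 at 0.0954 and IFI44L at 0.126 CPM per kb. IFI16 and STAT2, neighbours in this order, differed by less than the spread of their own libraries. For B2M, an abundant mRNA in most human cells, the annotated exons span 6079 bases, so a length taken over all of them understates its level per transcript.

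**Figure D3:**
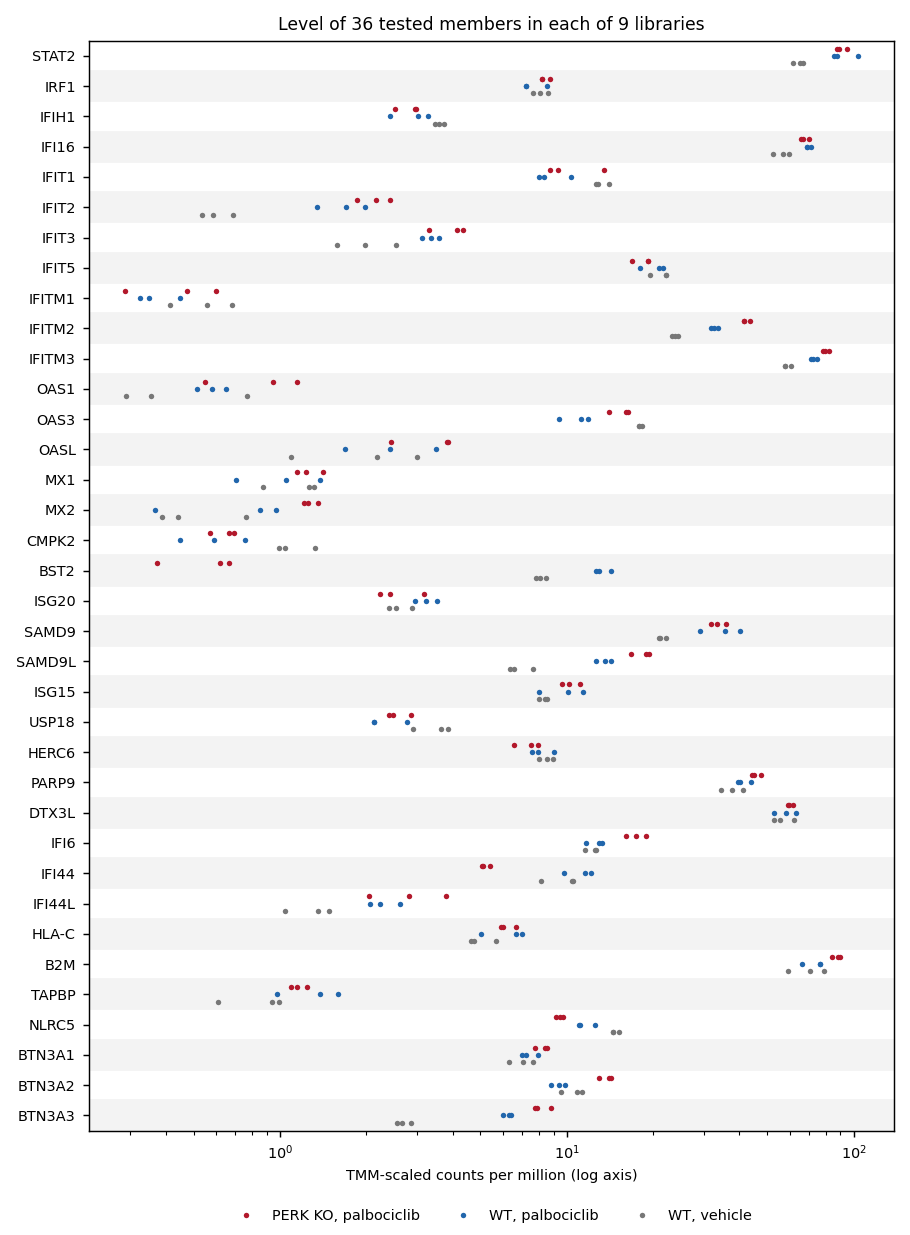
Level of the 36 tested genes in each of 9 libraries, as CPM scaled by TMM factors on a log axis, with 1 row per gene. Red points are PERK KO palbociclib, blue WT palbociclib and grey WT vehicle, 3 libraries each. In the BST2 row the KO points lie far to the left of both WT groups, at 0.373 to 0.664 CPM.

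On palbociclib, WT cells had higher levels of 12 and lower levels of 5 of the 36 tested genes than WT cells on vehicle (edgeR adjusted p under 0.05). The share called, 47.2%, is close to that of all 19408 genes tested, of which 43.7% were called (21.3% higher and 22.3% lower). Higher genes included IFIT2, BTN3A3, SAMD9L, IFI44L, IFIT3, BST2 and SAMD9, and lower ones were CMPK2, OAS3, IFIT1, USP18 and NLRC5. The median log2 fold change was 0.23 for the tested genes of the set and -0.02 for all tested genes.

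Between KO and WT cells, both on palbociclib, 8 of the 36 tested genes were higher and 3 lower in KO cells. This share, 30.6%, is again close to that of all tested genes, 27.9% (14.9% higher and 13% lower). BST2 was by far the most changed, at a level 24.2-fold lower in KO cells. IFI44 and NLRC5 were the other genes called lower, and OAS3, MX2, SAMD9L, IFI6, IFITM2, IFITM3, BTN3A2 and BTN3A3 were called higher. The median log2 fold change was 0.14 for the set and 0.01 for all tested genes.

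**Figure D4:**
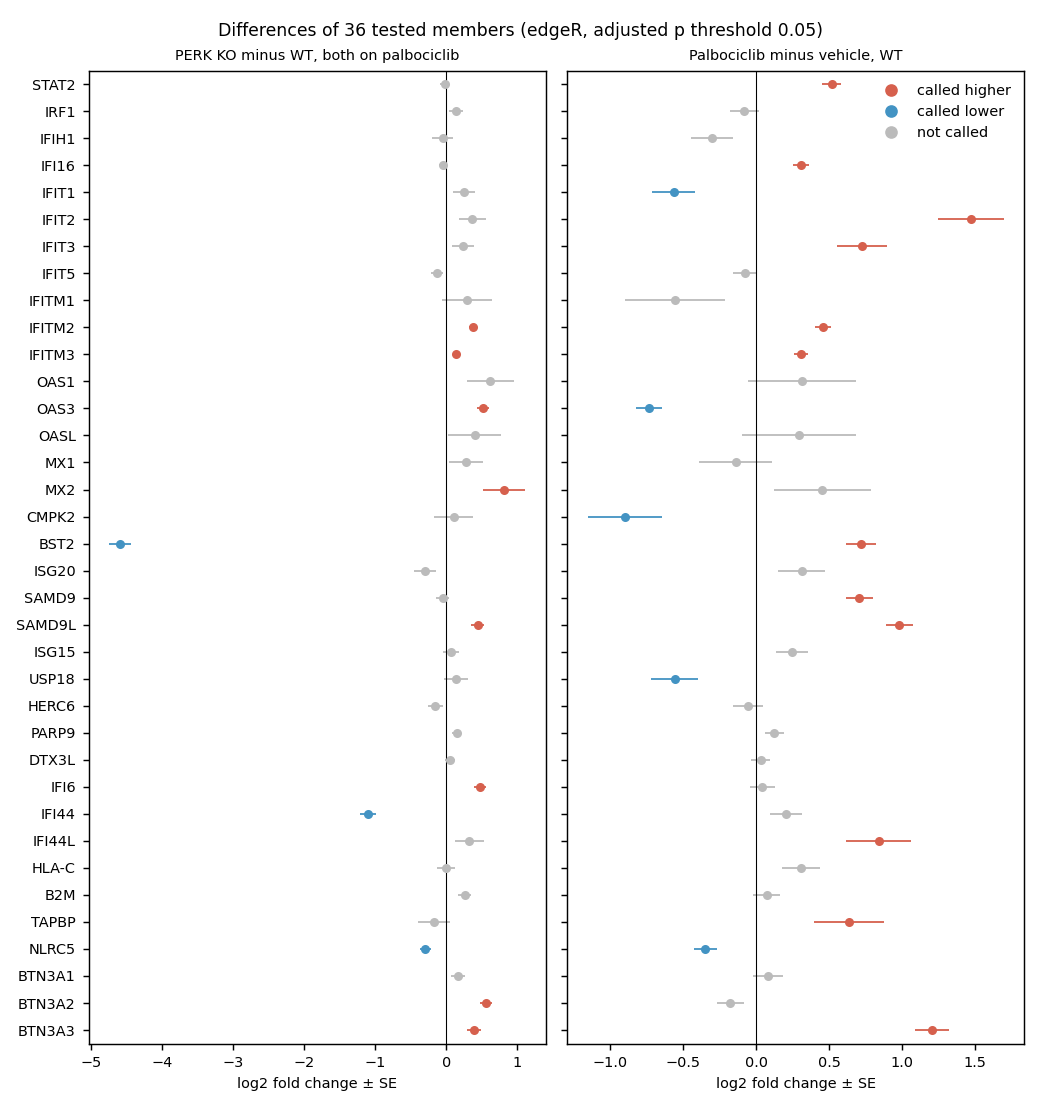
Log2 fold change (point) and its SE (bar) of the 36 tested genes from edgeR, with KO minus WT on palbociclib on the left and palbociclib minus vehicle in WT cells on the right, where the 2 horizontal scales differ. Red marks genes called higher, blue genes called lower and grey genes not called. BST2 lies at -4.60 on the left and 0.72 on the right.

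KO cells on palbociclib, set against WT cells on vehicle, had 17 genes higher and 8 lower, 69.4% of those tested, where 51.7% of all tested genes were called (25.7% higher and 26% lower). This comparison shares its groups with the other 2 and differs from WT vehicle in both genotype and drug, so it is given beside them as values. The median log2 fold change was 0.28 for the set and -0.01 for all tested genes. The count of lower genes depended on a few libraries: it was 4 without KO library 3, 4 without vehicle library 1, 5 without vehicle library 2 and 4 without vehicle library 3. The WT palbociclib libraries are likewise shared by the first 2 comparisons, so opposite signs there, as for BST2, OAS3 and BTN3A2, are not separate evidence.

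BST2 (ENSG00000130303.14; chromosome 19, 17402939 to 17405648 on GRCh38) encodes tetherin, which holds budding virions at the cell surface. It had 15, 23 and 26 counts in the KO palbociclib libraries, 485, 482 and 482 in WT palbociclib and 334, 332 and 283 in WT vehicle. In CPM these are 0.373, 0.664 and 0.617 in KO palbociclib, 14.3, 13 and 12.7 in WT palbociclib and 8.46, 8.05 and 7.79 in WT vehicle. The KO libraries were all far below both WT groups, and WT palbociclib was above WT vehicle in every library. The log2 fold change was -4.60 ± 0.15 for KO against WT on palbociclib (edgeR adjusted p = 1.81e-14) and 0.72 ± 0.10 for palbociclib against vehicle in WT cells (edgeR adjusted p = 1.06e-05).

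Genes around BST2 were read beside it. MVB12A, the protein-coding gene next to it, averaged 20.8 CPM in KO palbociclib, 20.9 CPM in WT palbociclib and 21.4 CPM in WT vehicle. BABAM1 averaged 20.6 CPM in KO palbociclib, 19.8 CPM in WT palbociclib and 18.0 CPM in WT vehicle. Neither was called between genotypes, with edgeR adjusted p of 0.946 and 0.563. BISPR, a long noncoding RNA transcribed next to BST2, had 146 counts in all and was lower in KO cells on palbociclib, at -1.92 ± 0.47 (edgeR adjusted p = 0.00435). All 3 were picked with their values known. The median log2 fold change of the 184 tested genes within 5 Mb was -0.02.

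SAMD9 and SAMD9L lie side by side on chromosome 7 and encode cytoplasmic proteins that restrict poxviruses and cell growth. SAMD9 had 36, 31.9 and 33.5 CPM in KO palbociclib, 40.3, 35.8 and 29.1 in WT palbociclib and 22.1, 21 and 21.1 in WT vehicle. Both palbociclib groups lay above vehicle without overlap, and KO and WT palbociclib overlapped. The palbociclib effect was 0.71 ± 0.094 (edgeR adjusted p = 2.31e-05), and KO against WT was -0.05 ± 0.091 (edgeR adjusted p = 0.737). SAMD9L had 19.3, 18.9 and 16.8 CPM in KO palbociclib, 14.3, 13.6 and 12.6 in WT palbociclib and 6.53, 7.62 and 6.36 in WT vehicle. Its 3 groups did not overlap and stood in that order. SAMD9L was higher on palbociclib by 0.98 ± 0.093 (edgeR adjusted p = 6.59e-08) and in KO over WT by 0.44 ± 0.086 (edgeR adjusted p = 0.000648). Whether the 2 neighbours differ in their response was not tested.

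CMPK2, a mitochondrial nucleotide kinase gene adjoining RSAD2, averaged 0.643 ± 0.0635 CPM in KO palbociclib, 0.597 ± 0.154 in WT palbociclib and 1.12 ± 0.177 in WT vehicle (SD, n = 3 each). Both palbociclib groups lay below vehicle, at -0.90 ± 0.25 in WT cells (edgeR adjusted p = 0.00724). ISG20, an exonuclease of single-stranded RNA, averaged 2.61 ± 0.498 CPM in KO palbociclib, 3.24 ± 0.29 in WT palbociclib and 2.61 ± 0.25 in WT vehicle. It was not called in either comparison, at -0.31 ± 0.16 for KO against WT (edgeR adjusted p = 0.166, and 0.0485 without KO library 3).

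The IFIT genes, clustered on chromosome 10, encode proteins that bind foreign RNA. Of the 4, palbociclib gave 2 higher, 1 lower and 1 not called in WT cells, and none was called between genotypes, where log2 fold changes ran from -0.14 to 0.36. IFIT2 had 1.86, 2.43 and 2.16 CPM in KO palbociclib, 1.98, 1.7 and 1.34 in WT palbociclib and 0.582, 0.534 and 0.688 in WT vehicle. Vehicle was lowest without overlap, and the genotypes overlapped. The palbociclib effect was 1.47 ± 0.23 (edgeR adjusted p = 2.6e-05), the largest rise among the tested genes of the set. It rests on 51 to 67 counts per library in WT palbociclib and 22 to 25 in WT vehicle. IFIT3 had 4.15, 3.32 and 4.34 CPM in KO palbociclib, 3.6, 3.13 and 3.37 in WT palbociclib and 2.53, 1.58 and 1.98 in WT vehicle. It moved the same way, by 0.73 ± 0.17 (edgeR adjusted p = 0.00174).

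IFIT1, which recognises RNA caps lacking host methylation, went the other way on the drug. It had 13.5, 9.36 and 8.75 CPM in KO palbociclib, 10.3, 8.03 and 8.34 in WT palbociclib and 12.7, 12.8 and 14 in WT vehicle. WT palbociclib lay below WT vehicle without overlap, and KO library 1 was high within its group. IFIT1 was lower on palbociclib in WT cells, at -0.57 ± 0.15 (edgeR adjusted p = 0.00699), and KO cells on palbociclib were not called against WT vehicle, at -0.32 ± 0.14 (edgeR adjusted p = 0.0804). Without KO library 1 that last value was -0.54 (edgeR adjusted p = 0.000503), and with the set number as a block its edgeR adjusted p was 0.00518. IFIT5 averaged 18.4 ± 1.33 CPM in KO palbociclib, 20.2 ± 1.94 in WT palbociclib and 21.3 ± 1.5 in WT vehicle, and it was not called in either of the first 2 comparisons, with an edgeR adjusted p of 0.0430 for KO against WT without WT palbociclib library 3.

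**Figure D5:**
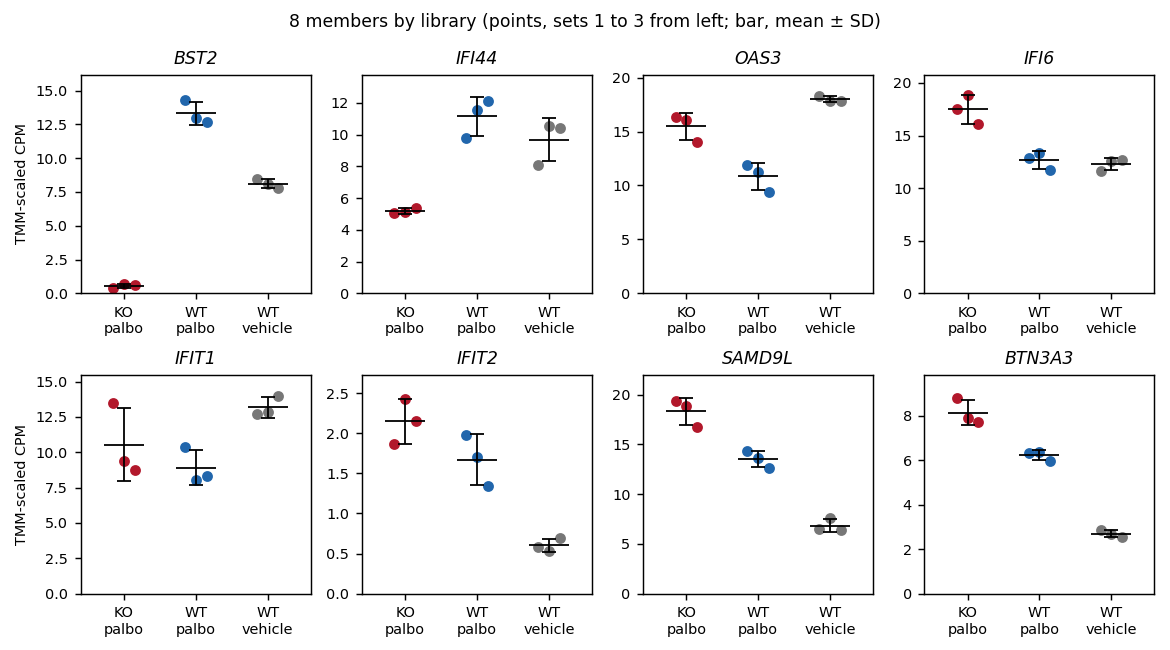
TMM-scaled CPM of 8 genes in each library, with KO palbociclib in red, WT palbociclib in blue and WT vehicle in grey, sets 1 to 3 from left to right within a group, and black bars for mean ± SD (n = 3). By their means, BST2 and IFI44 are lowest and IFI6 is highest in KO palbociclib, OAS3 and IFIT1 are highest in WT vehicle, and IFIT2, SAMD9L and BTN3A3 are lowest in WT vehicle.

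The IFITM genes on chromosome 11 encode membrane proteins that block fusion of enveloped viruses. IFITM3 had 78.4, 81.9 and 79.4 CPM in KO palbociclib, 71, 74.7 and 72 in WT palbociclib and 57.7, 60.6 and 57.7 in WT vehicle. The 3 groups did not overlap. IFITM3 was higher on palbociclib by 0.31 ± 0.048 (edgeR adjusted p = 3.05e-05) and in KO over WT by 0.14 ± 0.048 (edgeR adjusted p = 0.0342). That genotype call ended with DESeq2 size factors (0.0649), no filter (0.149) and the DESeq2 test (0.0877), and on leaving out KO library 2 (0.127), KO library 3 (0.0717), WT palbociclib library 1 (0.130) or WT palbociclib library 3 (0.120), values that are adjusted p.

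IFITM2 had 41.6, 43.5 and 41.6 CPM in KO palbociclib, 33.6, 32.6 and 31.8 in WT palbociclib and 24.4, 23.8 and 23.2 in WT vehicle. Again the groups stood apart in that order, and IFITM2 was higher on palbociclib by 0.46 ± 0.056 (edgeR adjusted p = 1.66e-06) and in KO over WT by 0.37 ± 0.054 (edgeR adjusted p = 2.89e-05). IFITM1 had only 0.596, 0.289 and 0.474 CPM in KO palbociclib, 0.324, 0.35 and 0.447 in WT palbociclib and 0.683, 0.558 and 0.413 in WT vehicle. Its groups overlapped and it was not called. The 3 genes are close copies, and the annotated exons of IFITM1 lie inside those of IFITM2 over 32.5% of their length, so counts may be divided between them in ways that cannot be checked here.

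The OAS genes on chromosome 12 make oligoadenylates that activate RNase L. OAS3 had 16.4, 16.1 and 14 CPM in KO palbociclib, 11.9, 11.2 and 9.39 in WT palbociclib and 18.3, 17.8 and 17.8 in WT vehicle. WT palbociclib was lowest, vehicle highest and KO palbociclib between them, with no overlap. The log2 fold change was 0.52 ± 0.089 for KO against WT (edgeR adjusted p = 0.000182) and -0.73 ± 0.089 for palbociclib against vehicle (edgeR adjusted p = 1.4e-06). OAS1 had 1.14, 0.549 and 0.949 CPM in KO palbociclib, 0.648, 0.512 and 0.579 in WT palbociclib and 0.354, 0.291 and 0.771 in WT vehicle. Its groups overlapped in both comparisons and it was called in neither.

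OASL, a relative that activates the sensor RIG-I, had 2.44, 3.81 and 3.84 CPM in KO palbociclib, 1.68, 2.43 and 3.5 in WT palbociclib and 1.09, 2.18 and 3.00 in WT vehicle. In each group set 1 was lowest and set 3 highest, and the groups overlapped. KO against WT was 0.40 ± 0.37 (edgeR adjusted p = 0.489, and 0.0277 with the set number as a block), and KO palbociclib against WT vehicle was 0.69 ± 0.38 (edgeR adjusted p = 0.163, and 0.000160 with the block).

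MX1 and MX2, dynamin-like GTPases encoded side by side on chromosome 21, were low in these cells. MX1 had 1.14, 1.42 and 1.23 CPM in KO palbociclib, 1.39, 0.701 and 1.05 in WT palbociclib and 1.32, 0.873 and 1.27 in WT vehicle. Its groups overlapped and it was not called. MX2 had 1.22, 1.36 and 1.26 CPM in KO palbociclib, 0.855, 0.971 and 0.368 in WT palbociclib and 0.759, 0.388 and 0.44 in WT vehicle. All KO libraries were above all WT libraries, by 0.81 ± 0.29 on palbociclib (edgeR adjusted p = 0.0457). This call ended in the DESeq2 test (adjusted p = 0.0787) and without KO library 1 (0.0783), 2 (0.122) or 3 (0.0851) or WT palbociclib library 1 (0.0557) or 3 (0.219), and without the last of these MX2 was called for palbociclib against vehicle instead (edgeR adjusted p = 0.0380).

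Of ISG15, its protease USP18 and 5 further genes, most of them ubiquitin ligases or their partners, 5 of 7 were tested. ISG15, the ubiquitin-like modifier, had 10.2, 11.1 and 9.61 CPM in KO palbociclib, 11.4, 10.1 and 8.00 in WT palbociclib and 8.53, 7.98 and 8.39 in WT vehicle. WT palbociclib overlapped both other groups, and ISG15 was called in neither of the first 2 comparisons, at 0.24 ± 0.11 for palbociclib against vehicle (edgeR adjusted p = 0.0827). That value passed without WT palbociclib library 3, the lowest of its group (edgeR adjusted p = 0.00356), without a filter (0.0465) and with the set number as a block (0.0304).

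USP18, which removes ISG15 from proteins and restrains the interferon receptor, averaged 2.58 ± 0.246 CPM in KO palbociclib, 2.34 ± 0.375 in WT palbociclib and 3.46 ± 0.491 in WT vehicle. It was lower on palbociclib, at -0.56 ± 0.16 (edgeR adjusted p = 0.00788). PARP9 and DTX3L, partners in a ubiquitin ligase complex, averaged 45.6 ± 1.77 and 59.9 ± 1.24 CPM in KO palbociclib, 41.2 ± 2.31 and 58 ± 5.09 in WT palbociclib and 37.8 ± 3.3 and 56.7 ± 4.73 in WT vehicle. Neither was called in the first 2 comparisons, though PARP9 passed between genotypes with the block (edgeR adjusted p = 0.0420) and on palbociclib without vehicle library 2 (0.0339). HERC6, a ligase of the HERC family, was at 7.33 ± 0.73 CPM in KO palbociclib, 8.17 ± 0.757 in WT palbociclib and 8.49 ± 0.489 in WT vehicle, and was called in no comparison except KO palbociclib against WT vehicle with the block (edgeR adjusted p = 0.0466).

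IFI44 and IFI44L adjoin each other on chromosome 1. IFI44 had 5.04, 5.11 and 5.38 CPM in KO palbociclib, 9.76, 11.6 and 12.1 in WT palbociclib and 8.1, 10.6 and 10.4 in WT vehicle. Every KO library was below every WT library. IFI44 was 2.15-fold lower in KO cells on palbociclib, or -1.11 ± 0.12 in log2 (edgeR adjusted p = 3.88e-07), and was not called on palbociclib in WT cells, at 0.21 ± 0.11 (edgeR adjusted p = 0.134, and 0.0432 with the block). IFI44L had 2.04, 2.83 and 3.79 CPM in KO palbociclib, 2.06, 2.24 and 2.63 in WT palbociclib and 1.04, 1.36 and 1.49 in WT vehicle. Vehicle was lowest, with a palbociclib effect of 0.84 ± 0.22 (edgeR adjusted p = 0.00446), and the genotypes overlapped, at 0.32 ± 0.20 (edgeR adjusted p = 0.257).

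IFI6, an interferon-inducible protein of the endoplasmic reticulum and mitochondria, had 17.5, 18.9 and 16.1 CPM in KO palbociclib, 12.9, 13.3 and 11.7 in WT palbociclib and 11.6, 12.5 and 12.6 in WT vehicle. KO libraries were highest without overlap, and the WT groups overlapped. The KO against WT difference was 0.47 ± 0.082 (edgeR adjusted p = 0.000206), and the palbociclib effect was 0.04 ± 0.084 (edgeR adjusted p = 0.714).

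Of the transcription factors that drive these genes, STAT2 and IRF1 were measured. STAT2 (chromosome 12, 56341597 to 56360155) had 89, 87.2 and 95.1 CPM in KO palbociclib, 87.7, 85.2 and 103 in WT palbociclib and 61.2, 65.2 and 66.5 in WT vehicle. Both palbociclib groups were above vehicle and overlapped each other. STAT2 was higher on palbociclib by 0.52 ± 0.065 (edgeR adjusted p = 2.94e-06), and KO against WT was -0.03 ± 0.064 (edgeR adjusted p = 0.808). IRF1 had 8.18, 8.2 and 8.73 CPM in KO palbociclib, 7.22, 8.52 and 7.21 in WT palbociclib and 8.05, 8.59 and 7.62 in WT vehicle. All groups overlapped and it was not called.

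Both nucleic acid sensors of the set were tested. IFI16, which binds foreign DNA, averaged 67.4 ± 2.34 CPM in KO palbociclib, 69.7 ± 1.31 in WT palbociclib and 56.2 ± 3.55 in WT vehicle, and was higher on palbociclib by 0.31 ± 0.053 (edgeR adjusted p = 8.85e-05). IFIH1, which encodes the double-stranded RNA sensor MDA5, averaged 2.82 ± 0.261 CPM in KO palbociclib, 2.92 ± 0.446 in WT palbociclib and 3.59 ± 0.126 in WT vehicle. It was not called on palbociclib in WT cells, at -0.30 ± 0.15 (edgeR adjusted p = 0.101). Neither sensor was called between genotypes.

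In class I antigen presentation, 4 of 8 genes could be tested. B2M (chromosome 15, 44711487 to 44718877), the light chain of all class I molecules, had 89.4, 84 and 88 CPM in KO palbociclib, 66.2, 76.1 and 76.2 in WT palbociclib and 58.9, 70.2 and 79 in WT vehicle. KO libraries lay above both WT groups, which overlapped each other, and in WT vehicle set 1 was lowest and set 3 highest. KO against WT was 0.26 ± 0.091, just short of the threshold (edgeR adjusted p = 0.0561). It passed with the set number as a block (0.00246), in limma-voom (0.0492) and the DESeq2 test (0.0199), with no filter (0.000227), in the 6 libraries compared (0.00182), and without vehicle library 1 (0.00220) or 3 (0.00740). Tested genes within 5 Mb of B2M had a median log2 fold change of 0.20 between genotypes, and B2M exceeded it by 0.06.

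HLA-C, a class I heavy chain, had 5.91, 6.67 and 6.00 CPM in KO palbociclib, 5.04, 6.96 and 6.63 in WT palbociclib and 4.76, 5.65 and 4.65 in WT vehicle. WT palbociclib overlapped both other groups and no comparison was called, with 0.31 ± 0.13 for palbociclib against vehicle (edgeR adjusted p = 0.06). This passed with the block (0.0177), with DESeq2 size factors (0.0462), with no filter (0.0417), and without WT palbociclib library 1 (0.0109) or vehicle library 2 (0.0360). TAPBP, or tapasin, had 1.14, 1.24 and 1.09 CPM in KO palbociclib, 1.59, 1.38 and 0.974 in WT palbociclib and 0.937, 0.607 and 0.991 in WT vehicle. WT palbociclib and vehicle overlapped, and the call of 0.64 ± 0.24 (edgeR adjusted p = 0.0382) ended without WT palbociclib library 1 (0.169) or 2 (0.10) or vehicle library 2 (0.193) and in the DESeq2 test (0.0616).

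NLRC5, the transactivator of class I genes, had 9.44, 9.68 and 9.2 CPM in KO palbociclib, 11.1, 12.5 and 11.1 in WT palbociclib and 14.5, 15.2 and 14.5 in WT vehicle. The 3 groups did not overlap. NLRC5 was lower on palbociclib, at -0.35 ± 0.08 (edgeR adjusted p = 0.0014) and lower in KO than in WT cells, at -0.30 ± 0.083 (edgeR adjusted p = 0.0106, but 0.0752 without WT palbociclib library 2).

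The butyrophilins BTN3A1, BTN3A2 and BTN3A3 take part in the response of gamma delta T cells to phosphorylated metabolites. They lie together on chromosome 6 outside the uncounted interval, and 53.6 to 58.3% of their neighbours averaged under 10 counts. BTN3A3 had 8.8, 7.88 and 7.73 CPM in KO palbociclib, 6.31, 6.39 and 5.97 in WT palbociclib and 2.86, 2.67 and 2.56 in WT vehicle. The groups stood apart in that order, with 1.20 ± 0.12 for palbociclib against vehicle (edgeR adjusted p = 8.02e-08) and 0.39 ± 0.10 for KO against WT (edgeR adjusted p = 0.00801, and 0.0506 without KO library 1). BTN3A2 had 14.1, 12.9 and 14.2 CPM in KO palbociclib, 9.84, 9.38 and 8.84 in WT palbociclib and 9.52, 11.3 and 10.9 in WT vehicle. KO libraries were highest, by 0.56 ± 0.089 over WT palbociclib (edgeR adjusted p = 7.65e-05), and the WT groups overlapped, at -0.18 ± 0.091 on palbociclib (edgeR adjusted p = 0.123, and 0.0398 without vehicle library 1).

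BTN3A1, the copy with the metabolite-binding domain, had 8.55, 8.4 and 7.75 CPM in KO palbociclib, 7.93, 7.01 and 7.18 in WT palbociclib and 6.28, 7.04 and 7.6 in WT vehicle. It was called in neither comparison, and KO palbociclib against WT vehicle was 0.24 ± 0.10 (edgeR adjusted p = 0.0523). That value passed with the block (0.0310), with DESeq2 size factors (0.0484), at a filter of 1 CPM in 3 libraries (0.0416), in limma-voom (0.0482), and without KO library 3 (0.0479), WT palbociclib library 3 (0.0444) or vehicle library 3 (0.0324). The 3 genes are near-identical over much of their length, so reads may be divided between them. Tested genes within 5 Mb had a median log2 fold change of -0.13 between KO and WT, opposite in sign to the values of all 3.

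Among called genes that averaged at least 1 CPM, KO palbociclib set against WT vehicle differed most in BST2 (-3.88), IFIT2 (1.83), BTN3A3 (1.59), SAMD9L (1.42), IFI44L (1.16), IFIT3 (0.96), IFI44 (-0.90) and IFITM2 (0.83), values that are log2 fold changes, with edgeR adjusted p from 1.91e-13 to 0.00014. MX2 and OAS1, which averaged below 1 CPM, were called with larger changes than some of these, at 1.26 ± 0.31 (edgeR adjusted p = 0.00169) and 0.93 ± 0.34 (edgeR adjusted p = 0.0277). Called here but in neither of the first 2 comparisons were IFIH1, IFIT5, OAS1, ISG15, PARP9 and B2M. Leaving out 1 library ended 7 of the calls. OAS3 ended without KO library 2 or 3 or any vehicle library (adjusted p up to 0.202), and IFIH1 without any KO or vehicle library or WT palbociclib library 1 (up to 0.178). IFIT5 ended without KO library 3 or vehicle library 1 or 2 (up to 0.167), and OAS1 without KO library 1 or 3 or vehicle library 1 or 2 (up to 0.144). USP18 ended without KO library 1 or 3 or vehicle library 1 or 3 (up to 0.116), ISG15 without KO library 2 or vehicle library 2 (up to 0.113), and CMPK2 without vehicle library 3 (0.0582). HLA-C was not called (edgeR adjusted p = 0.0578), but passed with the block (0.0149), and without WT palbociclib library 1 (0.0372) or 3 (0.0461) or vehicle library 2 (0.0328).

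The wider pathway was read through genes outside the set. No ligand passed the filter: of 10 interferon genes, 7 were listed at 0 in every library, IFNB1 among them. IFNE had 13 counts in KO palbociclib, 27 in WT palbociclib and 3 in WT vehicle. IFNW1 had 2 counts in all and IFNK had 1. Counts of genes around the ligands were not read, so their levels can be given only as listed in this table. The counts of called genes in the lists that follow stand beside 43.7% of all tested genes called on palbociclib and 27.9% between genotypes. All 15 receptor and JAK-STAT genes were tested. Palbociclib gave 3 higher and 3 lower in WT cells (40.0% called), and KO cells had 2 higher and 3 lower than WT cells on the drug (33.3%). IFNAR1 averaged 76.9 ± 1.15 CPM in KO palbociclib, 78.3 ± 6.47 in WT palbociclib and 73.7 ± 3.48 in WT vehicle, and IFNAR2 averaged 2.6 ± 0.345 CPM in KO palbociclib, 2.89 ± 0.458 in WT palbociclib and 2.39 ± 0.578 in WT vehicle. Neither receptor chain was called. JAK1 averaged 147 ± 0.467 CPM in KO palbociclib, 156 ± 4.43 in WT palbociclib and 140.4 ± 1.97 in WT vehicle, with a palbociclib effect of 0.15 ± 0.044 (edgeR adjusted p = 0.0103).

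SOCS1, a feedback inhibitor of the JAK kinases, averaged 9.03 ± 0.926 CPM in KO palbociclib, 7.07 ± 1.18 in WT palbociclib and 13.6 ± 1.54 in WT vehicle. It was lower on palbociclib, at -0.94 ± 0.12 (edgeR adjusted p = 2.68e-06). IFNLR1, a receptor chain for interferon-λ, averaged 1.51 ± 0.493 CPM in KO palbociclib, 3.94 ± 0.403 in WT palbociclib and 5.72 ± 0.306 in WT vehicle, and was lower in KO than WT at -1.40 ± 0.18 (edgeR adjusted p = 4.62e-06).

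Of 16 further sensors and adaptors, 12 were tested, with 3 higher and 3 lower on palbociclib (50%) and 1 higher and 3 lower in KO cells (33.3%). CGAS, the cytosolic DNA sensor, averaged 9.21 ± 0.628 CPM in KO palbociclib, 10.3 ± 1.3 in WT palbociclib and 14.5 ± 0.713 in WT vehicle, with a palbociclib effect of -0.49 ± 0.094 (edgeR adjusted p = 0.000273). STING1, its downstream adaptor, was listed at 0 in every library. Counts of its neighbours were not read, so its level can be given only as listed at 0 in this table. MAVS, the adaptor of the RNA sensors, averaged 87.2 ± 1.92 CPM in KO palbociclib, 133 ± 6.74 in WT palbociclib and 106 ± 1.97 in WT vehicle, and KO against WT was -0.61 ± 0.049 (edgeR adjusted p = 9.73e-09).

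Other interferon-stimulated genes numbered 35, of which 27 were tested. On palbociclib 15 were higher and 3 lower (66.7% called, against 43.7% of all tested genes), with a median log2 fold change of 0.25. In KO cells 8 were higher and 2 lower (37.0%, against 27.9%), with a median of 0.05. The difference of these shares from those of all genes was not tested. GBP2, an interferon-induced GTPase, averaged 4.93 ± 1.31 CPM in KO palbociclib, 4.36 ± 0.732 in WT palbociclib and 1.48 ± 0.067 in WT vehicle, a palbociclib effect of 1.56 ± 0.20 (edgeR adjusted p = 4.99e-06). UBA7, the activating enzyme for ISG15, averaged 4.63 ± 0.338 CPM in KO palbociclib, 2.85 ± 0.604 in WT palbociclib and 3.05 ± 0.117 in WT vehicle, and was higher in KO than WT by 0.70 ± 0.15 (edgeR adjusted p = 0.00123).

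Antigen processing beyond the set held 18 genes, of which 10 were tested and 7 were at 0, among them PSMB8 and PSMB9 on chromosome 6. As with HLA-B, TAP1 and TAP2, these 7 can be given only as listed in this table. The same limit holds for the class II genes at 0 below. Palbociclib gave 3 higher and 2 lower (50%), and KO cells had 3 higher and 0 lower (30.0%). RFX5, a promoter-binding factor of class I and class II genes, averaged 120.1 ± 5.47 CPM in KO palbociclib, 102 ± 5.64 in WT palbociclib and 65 ± 2.73 in WT vehicle, a palbociclib effect of 0.65 ± 0.054 (edgeR adjusted p = 1.05e-08). ERAP2, a peptidase that trims class I peptides, averaged 4.38 ± 0.41 CPM in KO palbociclib, 2.72 ± 0.59 in WT palbociclib and 3.28 ± 0.337 in WT vehicle, and was higher in KO by 0.68 ± 0.15 (edgeR adjusted p = 0.00221). Of 8 class II genes 2 were tested and 5 were at 0, and CD74, the invariant chain, named with its values known, averaged 0.632 ± 0.0789 CPM in KO palbociclib, 0.172 ± 0.0602 in WT palbociclib and 0.725 ± 0.0472 in WT vehicle. CD74 was lower on palbociclib, at -2.04 ± 0.34 (edgeR adjusted p = 6.53e-05), and higher in KO than WT, at 1.84 ± 0.35 (edgeR adjusted p = 0.000451). BTN2A2, the tested gene among 3 other butyrophilins, was at 17.7 ± 0.826 CPM in KO palbociclib, 16.4 ± 0.629 in WT palbociclib and 10.1 ± 1.01 in WT vehicle, with a palbociclib effect of 0.70 ± 0.083 (edgeR adjusted p = 1.1e-06).

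In KO palbociclib against WT vehicle, where 51.7% of all tested genes were called, the same lists held 2 higher and 5 lower receptor and JAK-STAT genes (46.7%), 3 higher and 5 lower sensors and adaptors (66.7%), and 14 higher and 2 lower other interferon-stimulated genes (59.3%). Antigen processing beyond the set had 6 higher and 1 lower (70.0%), class II genes 0 of 2 called, and BTN2A2 was higher by 0.80 ± 0.082 (edgeR adjusted p = 8.66e-08). The largest called change was -1.94 ± 0.17 for IFNLR1 among receptor and JAK-STAT genes, -0.66 ± 0.094 for CGAS among sensors, 1.73 ± 0.20 for GBP2 among other interferon-stimulated genes and 0.89 ± 0.054 for RFX5 in antigen processing, all with an edgeR adjusted p at or below 7.17e-06.

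Tested genes with the promoter core printed above moved in both directions. Of 20 such genes, palbociclib gave 7 higher, 2 lower and 11 not called, and KO cells had 4 higher, 2 lower and 14 not called, shares near those of all tested genes (43.7% on palbociclib and 27.9% between genotypes). Of 9 tested genes whose windows lack it, palbociclib gave 3 higher, 1 lower and 5 not called, and KO cells had 2 higher, 0 lower and 7 not called. BST2, IFIT1, IFIT3, IFI44, OAS3, SAMD9, ISG15 and B2M carry the same core and were shown because they moved differently. Their range therefore follows from that choice. ISG15 and B2M were called in neither of these comparisons. Between genotypes, the genes shown ran from -4.60 to 0.52 in log2 fold change. On palbociclib in WT cells they ran from -0.73 to 0.73.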

How the data were processed

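The authors deposited 1 table of raw read counts, in whole numbers, with a row per gene and a column per library, and no replicates were pooled. Per the labels' protocols, mRNA was captured on poly-T beads, fragmented and primed with random hexamers. STAR 2.7.9a, DESeq2, Trim Galore, FastQC and CASAVA are named in the submitters' processing notes, in roles not stated, with hg38 as the build. Neither the counter, nor its strand setting, nor its annotation is given in the sources used here. Reads of overlapping or near-identical genes therefore cannot be assigned with certainty.

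From these counts, symbols were matched for 62700 of 70116 IDs, and positions and exon lengths were taken from GENCODE 29 on GRCh38 for 58261. IDs without a symbol held 0.104 to 0.116% of counts. All 9 libraries entered an edgeR 4.0.16 quasi-likelihood fit (limma 3.58.1, R 4.3.3) of 3 groups with TMM factors of 0.977 to 1.01 and the default low-count filter, which kept 19408 genes and 99.91% of counts. The biological coefficient of variation was 5.99%. Adjustment (Benjamini-Hochberg) ran over all tested genes, and the threshold was 0.05. Levels are CPM scaled by TMM factors. The fit was tested on simulated data. Replicate counts differed by more than chance sampling, with 3.45 to 10.7 as chi-square over degrees of freedom.

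Alternatives were another scaling, 2 other filters, DESeq2 1.42.0, limma-voom, the 6 libraries compared, the set number as a block, and each library left out. The set numbers in the labels pair the libraries: in 12932 genes whose mean log2 CPM exceeded 1, the 9 same-numbered pairs correlated at 0.18 to 0.54 in their deviations from group means, and others at -0.40 to 0.071. Over all tested genes, 6 of the 9 pairs were above 0.1. Named genes were the regulators, class I, BTN3A, IFITM, ISG15, IFIT1, MX1 and OAS1, the 8 called genes with the largest changes per comparison at a mean of at least 1 CPM, and the called gene of each pathway list with the largest change. Other genes of the set are described by means. The set and the lists were chosen with earlier results of these data known. Figures were drawn with matplotlib 3.10.9.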

Additional observations from a re-analysis of the deposited data

How the results depend on the processing

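Of 108 combinations of tested gene and comparison, 0 changed sign where the main or the alternative fit called the gene. Sign changes of uncalled values were not counted. ISG20 in KO palbociclib against WT vehicle, for example, was at 0.0060, and at -0.00096 with the set number as a block. In all settings with a test, 80 combinations stayed on the same side of the threshold. The other 28 are named with their values beside the results, except IFIT1 and OASL with no filter (edgeR adjusted p = 0.00381 and 0.0156), IFIT1 in limma-voom and DESeq2 (0.0476 and 0.0443), IFIT5 and OAS3 in DESeq2 (0.0546 and 0.0630), IFIH1 with DESeq2 size factors, no filter and DESeq2 (0.0525, 0.0898 and 0.0844) and HLA-C in 6 libraries (0.0345), all for KO palbociclib against WT vehicle. Genes called lower there numbered 8, and 4 to 8 when each library was left out. On palbociclib 11 to 14 genes of the set were higher and 5 to 6 lower with a library left out, and between genotypes 6 to 9 were higher and 2 to 4 lower. Under a replicate block on the set number, the counts were 15 higher and 5 lower on palbociclib, 11 and 3 between genotypes and 20 and 10 for KO palbociclib against WT vehicle, while calls over all 19408 genes numbered 9762, 7068 and 11154 with the block and 8478, 5419 and 10036 without it. The block changed no call other than those given beside the results. Without HLA-C and TAPBP, an alternative chosen after seeing the data, the counts on palbociclib were 11 higher and 5 lower. Subtracting the median change of tested genes within 5 Mb moved 24 of the 108 log2 values by at least their SE. It turned the sign of no called one. The cause of these changes was not tested. Depth limits OAS1, MX1, MX2, IFITM1, CMPK2, IFIT2 and TAPBP, which rest on few counts per library.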
